A study of Arabidopsis thaliana with 10 samples.

Results

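The genes described here are those measured at high against low IBH1, in seedlings of the IBH1 overexpressor set directly against seedlings of the ibh1 mutant. A gene was taken where its level was 1 FPKM or more in at least 1 of these lines, which gave 20915 of the 34047 genes in the files. FPKM, the unit of the levels below, is the number of sequenced fragments of a gene scaled for transcript length and library size. The IBH1 overexpressor was homozygous for a fusion of IBH1 to green fluorescent protein (35Spro:IBH1-GFP) under the 35S promoter, a viral promoter active in most plant tissues. The ibh1 mutant was homozygous for a T-DNA insertion in IBH1 (SALK 049177). Col, the wild type that both lines share as background, was used for orientation, and so were lines of the homologue IBL1: an overexpressor (35Spro:IBL1-GFP) and an insertion mutant (SALK 119457). All plants were Arabidopsis thaliana of the Col-0 ecotype, untreated, grown at 22 °C under 16 h of light and taken whole at 10 days, with 2 libraries of poly(A) RNA per genotype. The labels name 1 line per genotype and do not say whether other insertions or transformants were sequenced.

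IBH1 is a helix-loop-helix protein without the basic residues that contact DNA. It pairs with growth-promoting bHLH activators such as HBI1 and keeps them from their target genes, and small helix-loop-helix proteins of the PRE family bind IBH1 in turn and release those activators. Brassinosteroid, the steroid hormone that drives cell elongation in stems and petioles, acts on this chain, and plants with excess IBH1 are known as dwarfs.

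The files hold 1 value per gene and genotype, with no spread between libraries and no depth. Log2 differences below are overexpressor over mutant. The figure after ± is a standard error built from the authors' statistics for each line against Col. It counts the spread of Col in both, so it is too large by that part if the authors' errors are right. Whether they cover the spread between plants cannot be checked from 1 value per genotype. A gene was called where the Benjamini-Hochberg adjusted p of a two-sided normal test on that difference was below 0.05, over all genes that could be tested. The series calls the 2 libraries of a genotype biological replicates without saying whether they came from separate sowings, so the spread behind these calls may be technical in part. In RNA from whole seedlings, fewer cells of a type and less RNA per cell cannot be told apart.

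IBH1 (AT2G43060, chromosome 2, 17909185 to 17910082 in TAIR10) was at 5148 FPKM in the overexpressor, against 6.91 FPKM in the mutant and 22.2 FPKM in Col. The direct difference was 9.54 ± 0.37 on the log2 scale, or 745-fold. Reads of the transgene and of the native gene were counted together, and the mutant kept a transcript, so low IBH1 here means less transcript, not none. IBL1 (AT4G30410 in the RefSeq annotation) was at 1.84 FPKM in the overexpressor and 7.27 FPKM in the mutant, a log2 difference of -1.98 ± 0.79 that was not called.

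Of the 20915 genes, 19739 were tested. The other 1176 could not be, 965 because the authors' table gave no test for 1 or both lines and 211 because a line or Col was listed at 0. Between the lines 580 of the 19739 genes were called (2.94%), 258 higher in the overexpressor (1.31%) and 322 lower (1.63%). A difference of 2-fold or more was found for 95 of those higher and 110 of those lower. An unadjusted p below 0.05 was found for 1959 genes. Over genes at 1 FPKM or more in both lines the median log2 difference was -0.01, with quartiles at -0.25 and 0.20. Calls followed expression. With the higher line at 1 to 5 FPKM, 7 of 3990 genes were called, against 352 of 3386 genes at 50 FPKM and above. The median standard error was 0.80 in the low class and 0.16 in the high one. On the 5 nuclear chromosomes between 2.38% and 3.51% of tested genes were called. At the limit of 1 FPKM the lowest gene inside had 1.00025 FPKM in its higher line and the highest gene outside had 0.999681 FPKM.

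**Figure D1:**
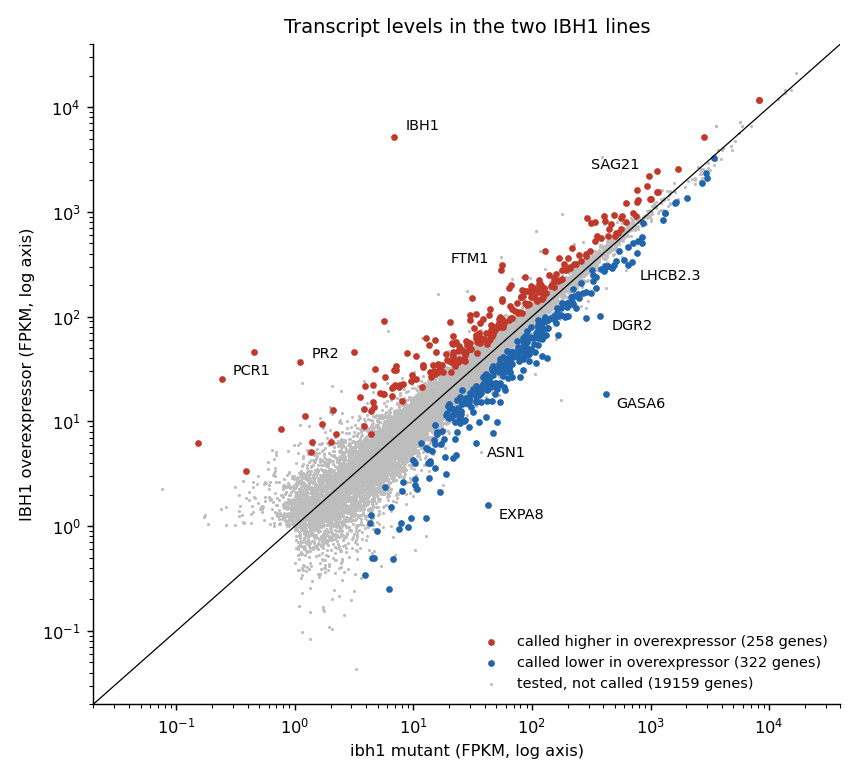
Level of each tested gene in the IBH1 overexpressor (vertical, FPKM, log axis) against the ibh1 mutant (horizontal, FPKM, log axis); the line marks equal levels. The 258 genes called higher are red, the 322 called lower are blue, and IBH1 stands apart at 5148 FPKM in the overexpressor.

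Promoters of 5 genes are shown because the results below turn on them: EXPA8 and GASA6 had the largest falls where both lines reached 1 FPKM, PR2 had the largest rise there after IBH1, and CCL and GRP7 are genes called higher that hold a clock motif. Each stretch is the 250 bases before the RefSeq gene start (TAIR10.1), written 5′ to 3′ on the gene's strand. Capitals mark the G-box CACGTG, bound by bHLH factors, and the evening element AAATATCT or its reverse complement, bound by clock factors of the MYB type.
EXPA8, chr2:16950706-16950955, minus strand: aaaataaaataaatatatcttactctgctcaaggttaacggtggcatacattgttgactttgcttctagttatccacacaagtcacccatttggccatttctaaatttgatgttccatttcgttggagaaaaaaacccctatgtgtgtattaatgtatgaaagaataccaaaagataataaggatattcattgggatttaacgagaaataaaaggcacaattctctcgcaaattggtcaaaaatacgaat
GASA6, chr1:28052780-28053029, plus strand: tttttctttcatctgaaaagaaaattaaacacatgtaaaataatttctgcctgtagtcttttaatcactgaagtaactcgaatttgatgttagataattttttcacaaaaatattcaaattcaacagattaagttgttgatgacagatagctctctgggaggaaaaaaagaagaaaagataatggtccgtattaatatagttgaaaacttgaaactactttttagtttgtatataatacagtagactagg
PR2, chr3:21189968-21190217, minus strand: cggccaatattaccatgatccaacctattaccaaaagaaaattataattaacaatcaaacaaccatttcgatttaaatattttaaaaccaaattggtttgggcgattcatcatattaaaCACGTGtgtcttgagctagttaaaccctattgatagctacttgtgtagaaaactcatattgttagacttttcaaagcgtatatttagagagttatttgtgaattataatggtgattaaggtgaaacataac
CCL, chr3:9827432-9827681, plus strand: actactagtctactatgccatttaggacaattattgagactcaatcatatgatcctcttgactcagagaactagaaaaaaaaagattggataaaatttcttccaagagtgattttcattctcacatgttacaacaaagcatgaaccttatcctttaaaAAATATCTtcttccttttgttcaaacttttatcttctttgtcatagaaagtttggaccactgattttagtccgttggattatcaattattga
GRP7, chr2:9266558-9266807, minus strand: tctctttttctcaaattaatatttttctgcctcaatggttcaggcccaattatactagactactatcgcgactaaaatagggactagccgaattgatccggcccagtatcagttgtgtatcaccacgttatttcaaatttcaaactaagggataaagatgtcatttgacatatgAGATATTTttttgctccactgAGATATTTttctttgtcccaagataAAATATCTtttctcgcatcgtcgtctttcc
Neither motif is in the stretch of EXPA8 or of GASA6. PR2 has 1 G-box, which starts 131 bases before the RefSeq gene start and runs into the letters CGTGTG. The files place the starts of EXPA8, GASA6 and PR2 farther downstream, at bases 16950557, 28053286 and 21189859. The bases between the RefSeq start and the start in the files are not shown. CCL has 1 evening element, 92 bases before the start, and GRP7 has 3, at 76, 55 and 30 bases before it.

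Genes of cell wall loosening and cell expansion led the falls. EXPA8 encodes an expansin, a protein that loosens the wall (AT2G40610, chromosome 2, 16948863 to 16950557). It was at 1.61 FPKM in the overexpressor, against 42.3 FPKM in the mutant and 41.0 FPKM in Col. The fall was 26.3-fold (log2 -4.72 ± 0.59). GASA6 (AT1G74670, chromosome 1, 28053286 to 28054149), a secreted cysteine-rich peptide induced by gibberellin, was at 18.4 FPKM in the overexpressor, against 418 FPKM in the mutant and 305 FPKM in Col. It fell 22.7-fold (log2 -4.50 ± 0.27). Both genes were low in the overexpressor and not in the mutant. In the authors' deposited table the mutant differed from Col by 0.04 ± 0.16 in EXPA8 (log2, q = 0.935) and by 0.45 ± 0.10 in GASA6 (q = 0.00096), which was higher in the mutant.

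Of 25 expansins tested, 6 fell and 0 rose, with a median log2 difference of -0.43. Over all tested genes 1.63% were called lower, and the median was -0.01. EXPA11 was at 4.76 FPKM in the overexpressor and 22.9 FPKM in the mutant (-2.27 ± 0.42), and EXPA1 was at 95.9 FPKM in the overexpressor and 283.6 FPKM in the mutant (-1.56 ± 0.13). EXPB3, EXPA4 and EXPA6 fell by between 0.61 and 0.86 on the log2 scale. Of 28 xyloglucan endotransglucosylase/hydrolases, enzymes that cut and rejoin wall xyloglucan, 5 fell and 0 rose (median -0.26). XTH17 had -1.57 ± 0.39, XTH8 -1.41 ± 0.26, XTH18 -1.36 ± 0.37 and XTH4 -0.72 ± 0.12. XTH7 was at 60.6 FPKM in the overexpressor and 121.5 FPKM in the mutant. XTH4 was the most abundant of them, at 172.7 FPKM in the overexpressor and 284.7 FPKM in the mutant. Of 8 GASA genes GASA6 and GASA4 fell (GASA4 -0.50 ± 0.13). None of 9 genes of primary wall cellulose synthesis was called by the normal test, with 5 below 0 at an unadjusted p below 0.05 and a median of -0.27.

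Aquaporins, the channels that let water cross the plasma membrane (PIP) and the vacuole membrane (TIP), held the most called genes of any list: 13 of 29 fell, 0 rose, and the median log2 difference was -0.50. Over all tested genes 1.63% were called lower. Calls were more frequent among abundant genes, with 10.4% called in either direction at 50 FPKM and above. TIP2;3 (AT5G47450) had 1.19 FPKM in the overexpressor and 9.51 FPKM in the mutant (-3.00 ± 0.81), with Col between them at 6.13 FPKM. DELTA-TIP (AT3G16240) had 329 FPKM in the overexpressor, against 704 FPKM in the mutant and 925 FPKM in Col (-1.10 ± 0.11). TIP2;2 had -0.96 ± 0.18 and GAMMA-TIP -0.37 ± 0.11. The other 9 called were plasma membrane channels, among them PIP3 (-0.78 ± 0.11), PIP2B (-0.76 ± 0.14), PIP2A (-0.64 ± 0.11) and PIP1B (-0.59 ± 0.11). PIP1B was the most abundant, at 522.8 FPKM in the overexpressor and 784.3 FPKM in the mutant. The 29 tested and 9 other listed channels summed to 4291 FPKM in the overexpressor, 6225 FPKM in the mutant and 6988 FPKM in Col. DELTA-TIP shares part of its span with a neighbouring gene, and channels of 1 subgroup are close in sequence, so how the counting divided reads among them is uncertain.

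Root markers were read beside the aquaporins, many of which are abundant in roots. Of 9 tested markers of root endodermis and stele, CASP1, which builds the Casparian strip, fell (32.1 FPKM in the overexpressor and 63.9 FPKM in the mutant, -0.99 ± 0.27). All 9 were below 0, with a median of -0.68, and 5 of the 9 had an unadjusted p below 0.05 by the normal test. Their list summed to 152 FPKM in the overexpressor, 239 FPKM in the mutant and 197 FPKM in Col. CASP5 was listed at 0 in the overexpressor. Of 7 root hair markers 0 were called by the normal test, 0 at an unadjusted p below 0.05, and they summed to 90.0 FPKM in the overexpressor and 98.1 FPKM in the mutant. Of 4 markers of root cap and epidermis 0 were called (1 at an unadjusted p below 0.05, below 0). Of 6 stomatal lineage markers 0 were called, with SPCH at 16.8 FPKM in the overexpressor and 6.77 FPKM in the mutant (1.31 ± 0.42) and 2 above 0 at an unadjusted p below 0.05. None of 2 shoot meristem or 3 trichome markers was called, and none had an unadjusted p below 0.05. The part of these cell types in the falls was not tested. Of 8 reference genes ACT7 fell (-0.39 ± 0.11) and the median was -0.15.

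**Figure D2:**
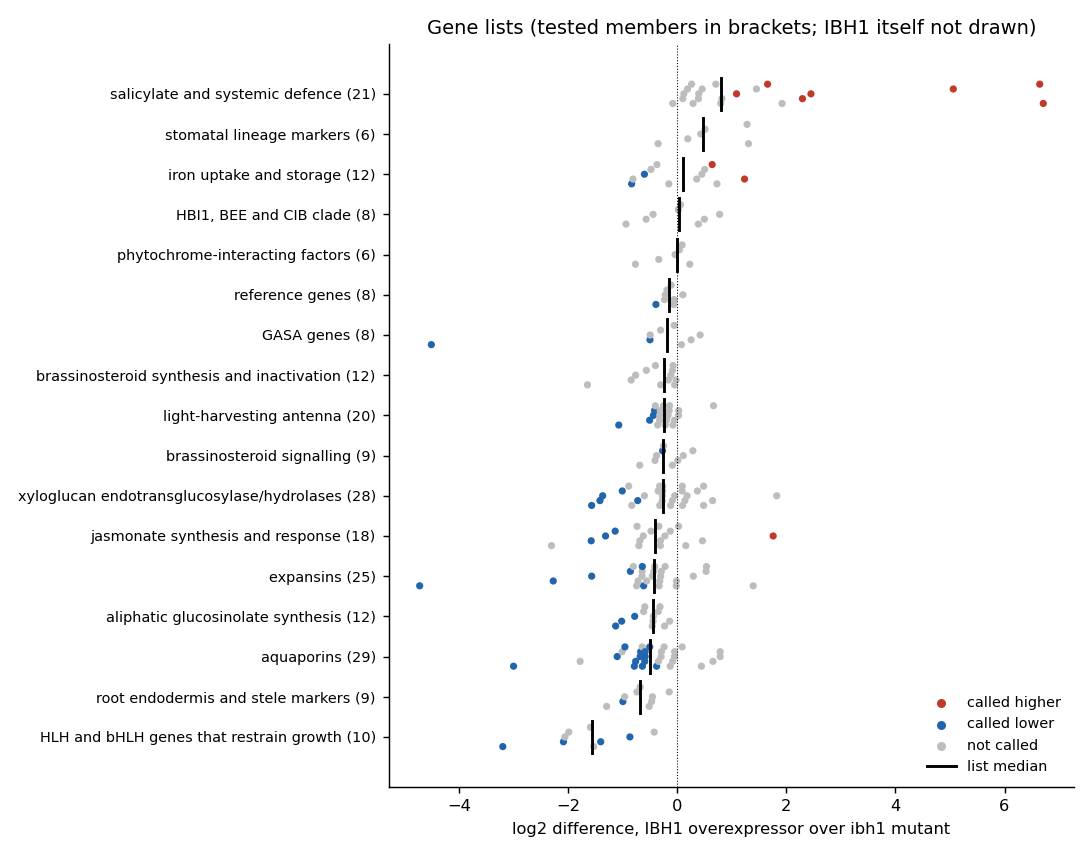
Log2 difference (IBH1 overexpressor over ibh1 mutant) of each tested gene in 17 gene lists, with called genes in colour and the list median as a bar; IBH1 is not drawn. Of the salicylate genes 7 of 21 were called, all higher, and of the aquaporins 13 of 29, all lower, against 2.94% of all tested genes.

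Of the 9 other helix-loop-helix genes tested that restrain growth, 4 fell, 5 were not called, and all 9 values were below 0. AIF1 (AT3G05800), a partner of the PRE proteins, was at 0.986 FPKM in the overexpressor and 9.02 FPKM in the mutant (-3.19 ± 0.86), with Col at 9.12 FPKM. It passed the limit of 1 FPKM through the mutant, and its call was lost where 1 FPKM was asked of both lines. PAR1 (AT2G42870), which acts in shade avoidance, was at 3.62 FPKM in the overexpressor, 15.3 FPKM in the mutant and 24.4 FPKM in Col (-2.08 ± 0.55). AIF4 had -1.40 ± 0.35 and AIF3, the most abundant of the fallers, -0.86 ± 0.15. UPB1, PAR2, HFR1 and AIF2 had between -2.06 and -0.42 and were not called, nor was IBL1, given above. IBH1 itself, the transgene and insertion target, is left out of these counts. Over all tested genes 1.63% were called lower.

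No call fell on the tested PRE genes, on HBI1 and its relatives, or on the phytochrome-interacting factors. The 3 PRE genes tested by the normal test, PRE1, PRE3 and PRE6, had between -0.49 and 0.30, and 0 had an unadjusted p below 0.05. PRE5 was listed at 0 in the mutant and could not be tested, and PRE2 and PRE4 were not analysed here. HBI1, the activator that IBH1 binds, was at 48.0 FPKM in the overexpressor and 47.3 FPKM in the mutant (0.02 ± 0.17). Of 8 genes of the HBI1, BEE and CIB clade 0 were called by the normal test, with BEE2 at -0.57 ± 0.20, CIB2 at -0.94 ± 0.36 and CIB4 at 0.78 ± 0.28, the 3 with an unadjusted p below 0.05. Of 6 phytochrome-interacting factors, bHLH activators of elongation that light restrains, 0 were called. PIF4 was at 9.74 FPKM in the overexpressor and 16.5 FPKM in the mutant (-0.76 ± 0.26), and both lines were below the 33.2 FPKM of Col. PIF4 was the only one of the 6 with an unadjusted p below 0.05. With equal spread assumed in all groups, which gives a smaller standard error, 3 genes of the clade and 1 of these factors were called. The PRE genes then still had 0 calls.

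Of 21 brassinosteroid genes tested 1 was called (4.76%), against 2.94% over all tested genes. Of 12 genes of synthesis and inactivation 0 were called (3 below 0 at an unadjusted p below 0.05), although all 12 values were below 0, with a median of -0.23. DWF4, a rate-limiting step of synthesis, was at 6.20 FPKM in the overexpressor and 11.1 FPKM in the mutant (-0.84 ± 0.35), and CPD at 88.5 FPKM in the overexpressor and 109.1 FPKM in the mutant (-0.30 ± 0.13). Of 9 signalling genes BES1, a transcription factor of the pathway, fell by 0.27 ± 0.08 (92.7 FPKM in the overexpressor and 111.4 FPKM in the mutant). The receptor BRI1 had -0.38 ± 0.14 and was not called.

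Of 108 auxin and gibberellin genes tested 5 were called (4.63%), against the same 2.94%. Of 52 SAUR genes, small auxin-induced genes of expanding tissue, 1 rose and 1 fell: AT1G56150 was at 31.6 FPKM in the overexpressor and 4.79 FPKM in the mutant (2.72 ± 0.70), and AT4G38860 at 13.6 FPKM in the overexpressor and 30.8 FPKM in the mutant (-1.18 ± 0.37). Among 26 Aux/IAA repressors IAA7 (-1.21 ± 0.13) and AT4G29080 (-0.79 ± 0.24) fell. GH3.3, of the enzymes that conjugate auxin to amino acids, rose among 14 GH3 genes (13.7 FPKM in the overexpressor and 4.66 FPKM in the mutant, 1.56 ± 0.35). Of 16 genes of gibberellin metabolism and perception 0 were called, with 1 above and 1 below 0 at an unadjusted p below 0.05.

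Salicylate-dependent defence genes led the rises. Of 21 tested, 7 rose and 0 fell, 20 were above 0, and the median log2 difference was 0.80. Where 1 FPKM was asked of both lines, 5 were called, as PR1 and PCR1, described below, were under it in the mutant. Over all tested genes 1.31% were called higher. This list, like the others, was chosen with earlier results of these data known. PR2 (AT3G57260, chromosome 3, 21188517 to 21189859), a beta-1,3-glucanase, was at 37.3 FPKM in the overexpressor and 1.12 FPKM in the mutant, a 33.4-fold difference (5.06 ± 0.60). PR1 (AT2G14610), the usual marker of salicylate signalling, was at 45.5 FPKM in the overexpressor and 0.454 FPKM in the mutant (6.64 ± 1.10), and PCR1 (AT1G14880), a cadmium resistance protein, at 25.5 FPKM in the overexpressor and 0.244 FPKM in the mutant (6.71 ± 1.29). Col stood between the lines for all 3 genes, at 18.6 FPKM for PR2, 19.3 FPKM for PR1 and 17.5 FPKM for PCR1, nearer on the log scale to the overexpressor. In the authors' deposited table PCR1 had a log2 difference of 0.54 ± 0.28 in the overexpressor (q = 0.256) and -6.17 ± 1.25 in the mutant (q = 0.000144), each line over Col. The authors' deposited table also gave PR2 values of 1.00 ± 0.19 in the overexpressor and -4.06 ± 0.57 in the mutant, each against Col. PR1 varied widely between genotypes, with 115 FPKM in the IBL1 overexpressor and 193 FPKM in the ibl1 mutant.

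The other salicylate genes called were LURP1 (4.92-fold higher), SAG13 (2.45 ± 0.73), the regulator WRKY70 (1.66 ± 0.42) and ACD6 (1.09 ± 0.15). LURP1 was at 62.2 FPKM in the overexpressor, 12.7 FPKM in the mutant and 9.54 FPKM in Col, so that for this gene the mutant stood near Col. The upstream regulators EDS1, NPR1 and EDS5 were not called, nor was PR5 at 26.6 FPKM in the overexpressor and 19.4 FPKM in the mutant (0.46 ± 0.29). Of 18 jasmonate genes 3 fell and 1 rose, with a median of -0.41, where 2.94% of all tested genes were called in either direction. AOS and AOC2, which make jasmonate precursors, had -1.31 ± 0.20 and -1.13 ± 0.24, and VSP2, a storage protein that jasmonate induces, was at 20.1 FPKM in the overexpressor and 59.8 FPKM in the mutant (-1.57 ± 0.23). TAT3, a tyrosine aminotransferase, rose (1.76 ± 0.48). Of 12 genes of aliphatic glucosinolate synthesis 3 fell, BAT5 (-1.13 ± 0.20), CYP79F1 (-1.02 ± 0.16) and BCAT4 (-0.78 ± 0.14); all 12 were below 0.

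**Figure D3:**
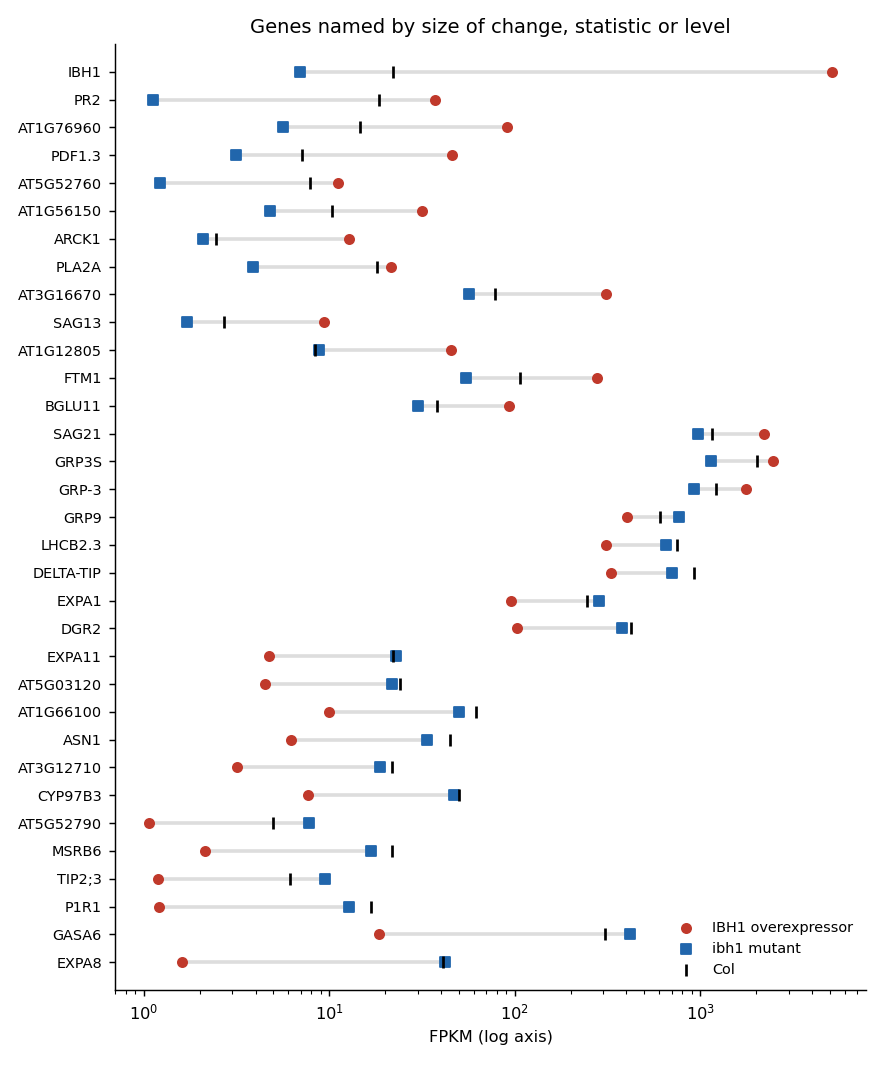
Levels (FPKM, log axis) of the 33 tested genes named by size of change, statistic or abundance, in the IBH1 overexpressor, the ibh1 mutant and Col. Col sits near the mutant for EXPA8, EXPA11 and CYP97B3, and near the overexpressor for PLA2A and AT5G52760.

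Beyond these lists the largest falls included P1R1 (AT5G57780), annotated as a transcription factor, at 1.204 FPKM in the overexpressor and 12.8 FPKM in the mutant (-3.41 ± 0.84). MSRB6, which repairs oxidised methionine, had 2.14 FPKM in the overexpressor and 16.8 FPKM in the mutant (-2.98 ± 0.66). CYP97B3, a cytochrome P450, had 7.71 FPKM in the overexpressor and 47.3 FPKM in the mutant (-2.61 ± 0.24). The thionin AT1G66100, a small antimicrobial peptide, had 9.94 FPKM in the overexpressor and 50.3 FPKM in the mutant (-2.34 ± 0.39). AT5G52790, AT3G12710 and AT5G03120 fell by between 2.28 and 2.88 on the log2 scale. All 7 were lowest in the overexpressor, and in the mutant they were below Col except AT5G52790, at 7.80 FPKM in the mutant and 5.00 FPKM in Col. None of the 7 differed between mutant and Col at q below 0.05 in the authors' deposited test, where q ran from 0.309 to 0.875.

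ASN1, the asparagine synthetase that rises in dark or starved tissue, was at 6.21 FPKM in the overexpressor, 33.6 FPKM in the mutant and 44.5 FPKM in Col (-2.44 ± 0.23). Of 13 dark-induced or starvation genes tested, ASN1 fell and DRM2 (AT2G33830) rose, and 11 were not called. DRM2 was at 237 FPKM in the overexpressor, 86.9 FPKM in the mutant and 262 FPKM in Col (1.45 ± 0.16). For DRM2 the mutant was the line that stood apart. Light-harvesting antenna genes had 4 of 20 lower and 0 higher. Over all tested genes 1.63% were called lower, and 10.4% of genes at 50 FPKM and above were called in either direction. The antenna list summed to 53959 FPKM in the overexpressor and 62705 FPKM in the mutant, both below the 91419 FPKM of Col. LHCB2.3 was at 310 FPKM in the overexpressor, 651 FPKM in the mutant and 745 FPKM in Col (-1.07 ± 0.12), and LHCB3, LHCB2.2 and LHCB2.1 had between -0.50 and -0.41. The LHCB2 copies are near-identical, so their shares of reads are uncertain.

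The largest rises beyond the defence list included AT1G76960, uncharacterised, at 91.0 FPKM in the overexpressor and 5.60 FPKM in the mutant (4.02 ± 0.81). The defensin PDF1.3 was at 45.8 FPKM in the overexpressor and 3.15 FPKM in the mutant (3.86 ± 0.88), and close defensin copies make its share of reads uncertain. PLA2A, a lipid hydrolase induced by pathogens, was at 21.6 FPKM in the overexpressor, 3.89 FPKM in the mutant and 18.0 FPKM in Col (2.47 ± 0.37). AT3G16670, of the pollen allergen and extensin family, was at 311 FPKM in the overexpressor and 56.4 FPKM in the mutant (2.47 ± 0.20). FTM1, of the acyl carrier protein desaturases, was at 277 FPKM in the overexpressor, 54.6 FPKM in the mutant and 107 FPKM in Col (2.34 ± 0.15). AT5G52760, the kinase ARCK1 and AT1G12805 rose by between 2.36 and 3.20 on the log2 scale.

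Other genes were named for their abundance or for the size of their test statistic. SAG21, a late embryogenesis protein of senescing tissue, was at 2210.3 FPKM in the overexpressor and 971 FPKM in the mutant (1.19 ± 0.08). BGLU11, a beta-glucosidase, had 92.5 FPKM in the overexpressor and 30.1 FPKM in the mutant (1.62 ± 0.11). Glycine-rich proteins, encoded close together on chromosome 2, went in both directions. GRP-3 had 1764 FPKM in the overexpressor and 927 FPKM in the mutant (0.93 ± 0.04), and GRP3S had 2452 FPKM in the overexpressor and 1142 FPKM in the mutant (1.10 ± 0.08). GRP9 fell, with 402 FPKM in the overexpressor and 771 FPKM in the mutant (-0.94 ± 0.06). Their standard errors lie below 0.16, the median of genes at 50 FPKM and above, and how the counting divided reads among these near copies is uncertain. DGR2, of unknown function and overlapping a neighbour, had 102 FPKM in the overexpressor and 378 FPKM in the mutant (-1.88 ± 0.12).

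Nutrient and stress lists held a few calls in both directions, where 2.94% of all tested genes were called. Of 12 iron genes the regulators bHLH39 (1.24 ± 0.36) and BTS (0.64 ± 0.15) rose, and the root ferric reductase FRO2 (-0.83 ± 0.24) and the ferritin FER1 (-0.60 ± 0.14) fell. Of 10 phosphate starvation genes MGDC, a galactolipid synthase, fell (-2.07 ± 0.44), as did the transporter PHT1;1 (-0.55 ± 0.16). Of 11 genes induced by abscisic acid or cold RD20 (-3.81 ± 1.17) and RD22 (-0.71 ± 0.13) fell. RD20 was at 0.481 FPKM in the overexpressor and 6.77 FPKM in the mutant, and only RD22 is left where 1 FPKM is asked of both lines. Of 10 rapid touch and wound regulators WRKY33 rose (0.92 ± 0.26). By the normal test, 0 of 10 flavonoid genes and 0 of 9 type-A cytokinin response regulators were called, and 0 in either list had an unadjusted p below 0.05. Of 94 chloroplast-encoded genes 0 were called (4 above and 2 below 0 at an unadjusted p below 0.05), and of 51 mitochondrial ones 0 (1 above 0).

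SEP3, a floral MADS-box gene, could not be tested because the authors' table of the mutant gave it no test; it was at 44.9 FPKM in the overexpressor, 6.29 FPKM in the mutant and 5.49 FPKM in Col. The 7 other flowering genes tested were not called, and 0 had an unadjusted p below 0.05. Of the 647 genes under 1 FPKM in the mutant only, 162 were listed there at 0, and of the 940 under 1 FPKM in the overexpressor only, 284 were listed there at 0. The most abundant of these were features of 72 to 81 bases. ATCG00620, ATCG00460 and AT3G47342 had 2074 FPKM, 630.15 FPKM and 608 FPKM in the overexpressor and were listed at 0 in the mutant. ATCG00110, MIR160c and AT2G05765 were listed at 0 in the overexpressor and had 848 FPKM, 411 FPKM and 354 FPKM in the mutant. Few fragments give a high FPKM on so short a feature, and no difference was computed.

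Promoters, taken as 250 bases before to 50 bases after the RefSeq start, were searched for 4 motifs on both strands. The evening element AAATATCT was in 36 of 252 promoters of genes called higher (14.3%), in 18 of 319 of genes called lower (5.64%) and in 5.89% of the 19033 promoters of tested genes. The G-box CACGTG was in 11.9% of the higher, 7.84% of the lower and 8.64% of all tested. CGTGTG, a brassinosteroid response element that can overlap a G-box, was in 8.33% of the higher, 6.58% of the lower and 6.74% of all tested. TTGAC, the W-box core of WRKY factors, was in 126 of the 252 promoters of the higher, 144 of the 319 of the lower and 50.9% of all tested. Of the 4 motifs only the G-box was in the plan. The evening element and W-box were searched after values had been seen, and the shares are descriptions with no test. A match is not a bound site.

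The 36 genes with an evening element include GRP7, an RNA-binding protein under clock control shown above, at 1236 FPKM in the overexpressor, 768 FPKM in the mutant and 1135 FPKM in Col (0.69 ± 0.11). CCL, also shown above, was at 592 FPKM in the overexpressor, 351 FPKM in the mutant and 593 FPKM in Col (0.76 ± 0.12). For both genes the mutant was low, with Col near the overexpressor. JMJD5, a histone demethylase of the clock, was at 33.1 FPKM in the overexpressor, 12.1 FPKM in the mutant and 13.0 FPKM in Col (1.45 ± 0.22), with the overexpressor high. The starch-degrading enzymes ISA3 (0.83 ± 0.23) and SEX1 (0.53 ± 0.14) also belong to the 36. Of 14 core clock genes 0 were called by the normal test, with 3 above and 1 below 0 at an unadjusted p below 0.05. CCA1, a morning gene that binds the evening element, was at 45.1 FPKM in the overexpressor and 48.9 FPKM in the mutant (-0.12 ± 0.12), LHY had -0.24 ± 0.08 and TOC1 0.42 ± 0.21, and none of the 3 was called. The labels give no hour of harvest, and the part of the time of day was not tested.

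**Figure D4:**
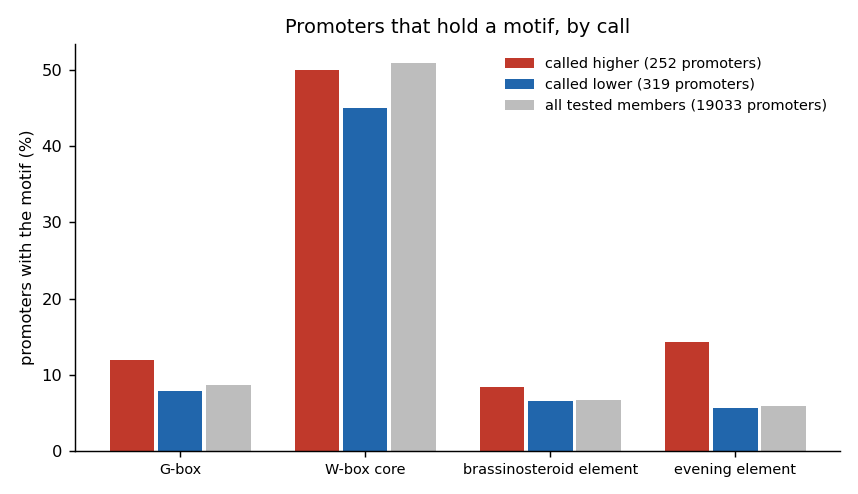
Share of promoters (%) that hold each of 4 motifs, for genes called higher in the IBH1 overexpressor, genes called lower, and all tested genes. The evening element is in 14.3% of the higher, 5.64% of the lower and 5.89% of all.

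The difference between the IBH1 lines was then set against that between the IBL1 lines, IBL1 overexpressor over ibl1 mutant. The comparison was added after the data had been seen. Between the IBL1 lines 1036 of 19883 tested genes were called (5.21%). The median log2 difference was 0.19 between the IBL1 lines and -0.01 between the IBH1 lines, so each was centred on its own median before they were subtracted. The test of this difference, in which Col cancels, called 570 of 19477 genes (2.93%), 289 above 0 and 281 below. Of the 579 genes called between the IBH1 lines that had this test, 270 were called, 111 above 0 and 159 below. These genes were picked by the IBH1 difference, which also enters this test, so a high share of calls was built in. EXPA8 was at 15.7 FPKM in the IBL1 overexpressor and 32.7 FPKM in the ibl1 mutant (centred log2 -1.25), against -4.72 between the IBH1 lines, and the difference of -3.46 ± 0.65 was called. ASN1 was at 15.6 FPKM in the IBL1 overexpressor and 10.5 FPKM in the ibl1 mutant, and its difference of -2.82 ± 0.32 was called.

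PR1 and PCR1 also differed between the comparisons, by 7.58 ± 1.14 and 6.97 ± 1.34. PCR1 was at 29.5 FPKM in the IBL1 overexpressor and 31.0 FPKM in the ibl1 mutant, so that of the 5 genotypes the ibh1 mutant alone was low. The jasmonate genes AOS (-1.77 ± 0.27) and AOC2 (-1.68 ± 0.32) and the endodermal CASP1 (-1.51 ± 0.37) were called below 0. Of the 13 aquaporins that fell, 3 were called in this difference, TIP2;2 (-1.16 ± 0.23), PIP2B (-0.74 ± 0.18) and GAMMA-TIP (-0.48 ± 0.15). The other 10 were not, among them TIP2;3 (-2.91 ± 1.00) and DELTA-TIP (-0.46 ± 0.15), and without centring 8 of the 13 were called, DELTA-TIP included. AIF1 (-3.11 ± 1.00) and PAR1 (-2.21 ± 0.70) were not called, and both were called without centring. LHCB2.3 had -1.07 between the IBH1 lines and -1.22 between the centred IBL1 lines, and its difference of 0.16 ± 0.16 was not called.

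**Figure D5:**
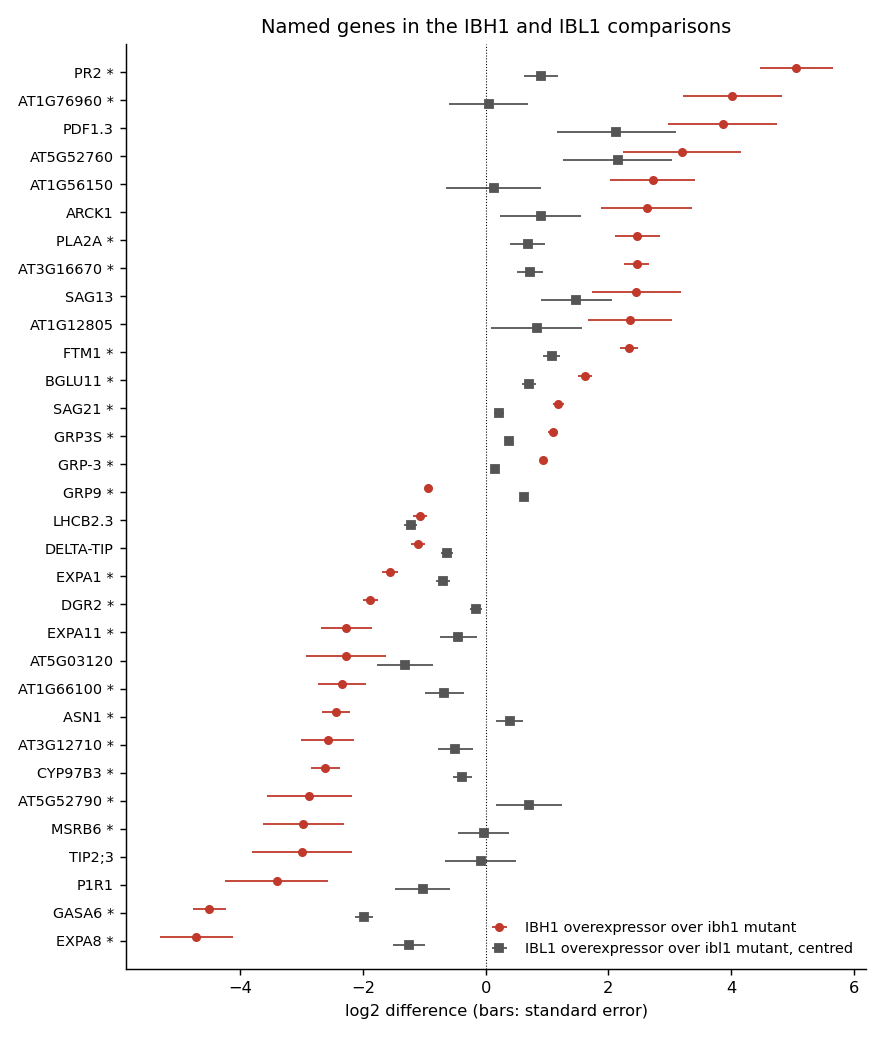
Log2 difference with its standard error for 32 named genes, between the IBH1 lines (circles) and between the IBL1 lines (squares, centred on their median); an asterisk marks a called difference between the comparisons. EXPA8 and GASA6 lie farther left in the IBH1 lines, and LHCB2.3 lies at about the same place in both.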

How the data were processed

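RNA sequencing of whole seedlings in 5 genotypes with 2 libraries each was analysed from 4 deposited tables, each of 1 line against Col. Per the submitters' processing notes, the software was CASAVA 1.8.2, TopHat 1.4.1 and Cuffdiff with the TAIR10 build. The Cuffdiff version, gene models and strand setting were not given in the sources used here. A protocol text speaks of more replicates than the 2 libraries per genotype listed. Per the file headers, the columns are an FPKM for the line and for Col, their log2 fold change, a statistic (a score), a p-value and a q-value. The authors' deposited log2 values put Col over the line, and the sign was turned. The authors deposited 1 FPKM value per genotype, so depth is unknown and no count test could be run. A two-sided normal test on the authors' statistic gives their deposited p-value to within 2.81e-06, so the standard error was taken as fold change over statistic.

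The direct log2 difference is the ratio of the 2 lines' FPKM with no pseudocount. Its standard error is the root of the summed squares of both lines' errors against Col. Benjamini-Hochberg adjustment ran over all 19898 testable genes (status OK in both tables, above 0 in both lines and Col). The difference from the IBL1 lines used the errors of all 4 tables. The calculation was also run on simulated data drawn with these same standard errors, which cannot show whether the errors are right. Motifs were counted in the RefSeq genome TAIR10.1, in which 26628 of 26629 genes shared with the files overlap their position. The first or last base was the same for 38.6% of them, so RefSeq starts often differ from those in the files. Gene coordinates are those of the files, counted from 1. In the annotation used for symbols, 20569 of the 20915 genes have an entry. Work was done in Python 3.11.15 with pandas 2.3.3, numpy 2.4.6, scipy 1.17.1 and matplotlib 3.10.9.

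The genes, the gene lists and the tests were chosen with earlier results of these data known. Named by rule were, among genes called and at 1 FPKM or more in both lines, the 12 with the highest and the 12 with the lowest difference; the 4 largest statistics and, at 2-fold or more, the 3 most abundant in each direction; the 3 most abundant genes under 1 FPKM in the other line, each way; and the gene lists. CCL, GRP7, JMJD5, ISA3 and SEX1 were named after their values were seen. In all, 8 listed genes were left out because the annotation gives other names for their IDs: PRE2, PRE4, BHLH49, BHLH77, PIF8, FIT, ERF1A and TIP41L. Alternatives were a standard error for equal spread in all groups, centring on the median, other filters, adjustment over fewer genes and pseudocounts.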

Additional observations from a re-analysis of the deposited data

Results flagged for a closer look

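Of the 33 tested genes named by size of change, statistic or abundance, 22 differed between the IBH1 and the IBL1 comparison by a test of the difference itself (normal test, adjusted p below 0.05 over all genes; IBH1 difference minus IBL1 difference, log2, each centred on its median). All 33 genes were named through their IBH1 difference, the first term of this test, so a high share of calls was built in. Over all genes tested for this difference 2.93% were called. The values are descriptions of these lines, and no cause was tested. IBH1 itself had 9.51, as only the IBH1 lines carry its transgene and insertion. Below 0 were 12 genes: AT5G52790 at -3.58, EXPA8 at -3.46, MSRB6 at -2.94, ASN1 at -2.82, GASA6 at -2.51, CYP97B3 at -2.22, AT3G12710 at -2.08, EXPA11 at -1.82, DGR2 at -1.71, AT1G66100 at -1.66, GRP9 at -1.56 and EXPA1 at -0.86. GRP9 was at 402 FPKM in the IBH1 overexpressor and 771 FPKM in the ibh1 mutant, and at 904 FPKM in the IBL1 overexpressor and 515 FPKM in the ibl1 mutant. Besides IBH1, 9 genes were above 0: PR2 at 4.17, AT1G76960 at 3.98, PLA2A at 1.79, AT3G16670 at 1.75, FTM1 at 1.27, SAG21 at 0.98, BGLU11 at 0.92, GRP-3 at 0.78 and GRP3S at 0.73. The other 11 genes, among them DELTA-TIP and LHCB2.3, were not called; DELTA-TIP, at -0.46, was called when the differences were not centred.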

How the results depend on the processing

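With equal spread assumed in all groups, 1873 genes were called in place of 580, 858 higher and 1015 lower, and all 580 were among them; the smaller standard error is that alternative's own construction. The difference between the IBH1 and IBL1 comparisons then called 2090 genes in place of 570, and without centring 693. With a pseudocount of 1, 306 genes were 2-fold higher and 404 were 2-fold lower, in place of 544 and 801, because the pseudocount shrinks low genes. Centring, other filters and adjustment over fewer genes gave 567 to 584 calls, and 574 genes were called with and without centring. Of 478 named or listed genes besides IBH1, equal spread added 77 calls and removed 0, and centring changed 0. IBH1 had 9.35 with a pseudocount of 1. No paired analysis was possible because the files hold 1 value per genotype, so no replicate could be left out. A direct test between the lines would need the values of single libraries.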
